A study of Mus musculus with 4 samples.

Results

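The 36 genes described here code for the machinery that builds ribosomes, or drive it, and they were measured in CD8 T cells of PD-1-/- mice. They were chosen by name, with no measured value in the rule, from the 22911 genes that the probes of the arrays could be assigned to. Earlier results of these data were known when the list was chosen. The series compared 4 sorted CD8 T cell subsets from C57BL/6 mice that were untreated and aged 1 to 3 months, with spleen and lymph node as the source. P4 was CD44low CD62Llow, the population the study set out to characterise. P3 was CD44high CD62Llow, P2 was CD44high CD62Lhigh and P1 was CD44low CD62Lhigh. Every subset carried the PD-1-/- genotype, so no comparison here is with mice that have PD-1. Each subset was hybridised to 1 single-colour Agilent array, and all 4 arrays were on 1 slide. With 1 array per subset there was no replicate and no test, and differences are described by their size.

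A new ribosome begins in the nucleolus, where RNA polymerase I transcribes the long precursor of ribosomal RNA. Small nucleolar ribonucleoproteins (snoRNPs) modify that precursor, assembly factors fold and cut it into a small 40S and a large 60S subunit, and ribosomal proteins made in the cytoplasm are added on the way. Naive T cells keep this machinery low and raise it when they are activated to divide, and the transcription factor MYC is known to drive many of its genes.

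Values are log2 processed signal relative to the array's own 75th percentile of signal, called the level below, so that a level of 0 is as bright as that percentile and a difference of 1 is 2-fold. The 36 genes had 63 probes, of which 62 were well above background on all 4 arrays and 1 was on none. That dim probe was the only one for Utp18, a small subunit factor, for which no level is given, so 35 genes were measured on every array and none of them passed through 1 bright array alone. A gene was represented by its brightest probe. Probes printed in repeated spots on an array gave a spot SD of 0.0666 at levels of 0 or more, and the difference of 2 single spots then has a 95% half-width of 0.185. This figure covers printing and scanning error within an array, not differences between mice, sorts or labelling reactions.

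The arrays held 28617 probes well above background in P4, 30811 in P3, 27827 in P2 and 28033 in P1, and the 75th percentile of signal was 315 in P4, 550 in P3, 332 in P2 and 333 in P1. The labelled cell type was borne out by its markers, since 13 T cell lineage genes were above background on every array and Cd8a, a chain of the CD8 co-receptor, had levels of 5.46 in P4, 5.60 in P3, 5.30 in P2 and 5.55 in P1. Cd44, which encodes a protein used for the sort, followed the labels, at -0.71 in P4, 2.65 in P3, 2.79 in P2 and -1.27 in P1. Pdcd1, which encodes PD-1, gave signal above background on every array, at 2.23 in P4, 2.30 in P3, -2.53 in P2 and -2.77 in P1. The labels do not say whether its probe lies in the deleted part, so it does not check the genotype.

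Ribosome biogenesis genes were lowest in P3. All 35 measured genes had their lowest level in that subset, and 34 of them, Bop1 being the exception, lay below each of the other 3 arrays by more than the 0.185 half-width. Over the 11835 genes above background on all 4 arrays, 43% were lowest in P3 and 26.2% were below each other array by that margin. The margin is that of levels of 0 or more. Of the 11835 genes, 3536 had a mean level below 0, where the half-width was larger, at 0.376 from -3 to 0. None of the 35 genes did. All shares of genes beyond 0.185 given below include such dim genes. The median difference of P3 minus P1 was -0.57 for the 35 genes, against -0.10 for all measured genes. For P3 minus P2 it was -0.65, against -0.04 for all measured genes. For P4 minus P3 it was 0.70, against 0.02 for all measured genes. These 3 pairs all contain the single P3 array, so they are not independent of each other. Because RNA was taken from sorted cells in bulk, fewer cells expressing these genes and less RNA per cell cannot be told apart. Nor can either be told from more RNA of other genes or of other cells on the P3 array.

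The direction is relative to the other genes on the same array. Before any scaling, genes above background on the 4 arrays had a median log2 difference of 0.59 in processed signal, P3 minus P1. For the 35 genes this median was only 0.16. In that signal 4 of the 35 were lowest in P3 and 17 were highest there, the most of any array. Of all 11835 genes, 414 were lowest in P3 and 9982 highest. Under 5 other ways of making the arrays comparable, between 33 and 34 of the 35 genes were lowest in P3. In 60 of the 62 measured probes the lowest level was in P3, and the 2 others, both of Rrp1b, were lowest in P1.

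**Figure D1:**
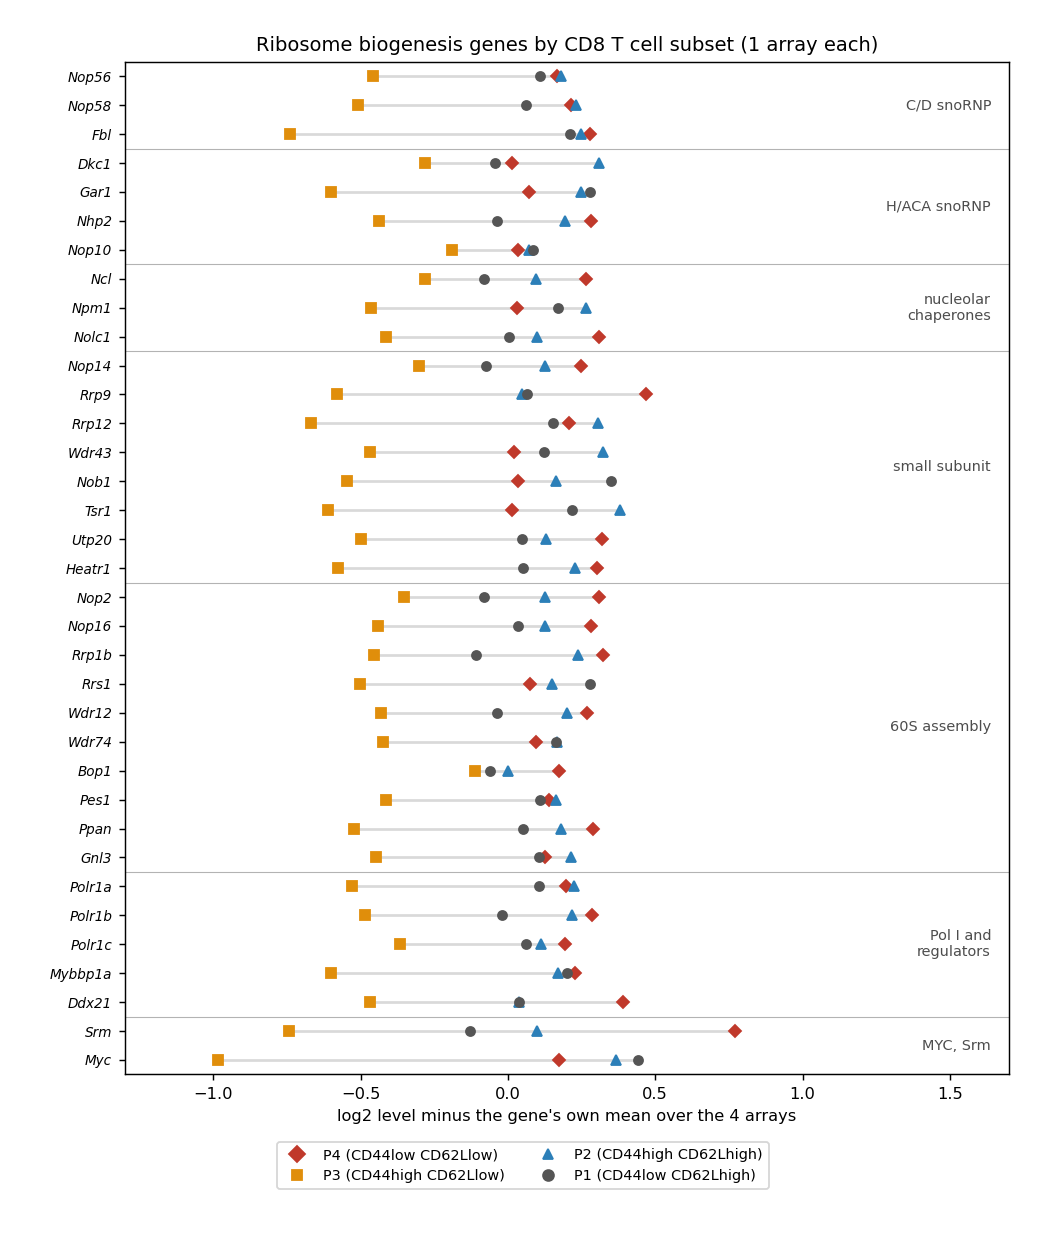
Levels of the 35 measured ribosome biogenesis genes in the 4 subsets, each gene centred on its own mean over the 4 arrays, in log2 units and grouped by role. Each symbol is 1 array, and the P3 squares lie leftmost in all 35 rows.

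The other 3 subsets lay close together. P4, P2 and P1 were within 2-fold of each other for all 35 genes. Most of all measured genes were too. In each of these pairs at most 5.43% of them were at least 2-fold higher and at most 3.45% at least 2-fold lower. The highest level was in P4 for 19 genes, where 16.7% of the genes above background on all 4 arrays had theirs. It was in P2 for 11 genes, beside 17.5% of all, and in P1 for 5 genes, beside 36.7% of all. In P4 minus P1, 26 genes were above 0 and 9 below, with a median of 0.13, while 41.2% of all measured genes were above 0 and their median was -0.07. Of the 35 differences, 16 were higher by more than 0.185, beside 23% of all measured genes, and 5 lower by more than it, beside 34.1% of all. In 15 genes P4 was above P1 and P3 below P2, each by more than 0.185, beside 3.71% of the genes above background on all 4 arrays. The median of P4 minus P2 was 0.06, against -0.002 over all measured genes, and 5 genes were higher by more than 0.185, beside 26.7% of all, and 5 lower by more than it, beside 27.4% of all. The median of P2 minus P1 was 0.10, against -0.06 over all measured genes, with 28 genes above 0, beside 39.9% of all. Among the 18 genes with at least 2 measured probes, the probes had the same sign for all 18 genes in P4 minus P3, for 15 in P2 minus P1 and for 11 in P4 minus P1, so that the sign of several genes in the last comparison depended on the probe.

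**Figure D2:**
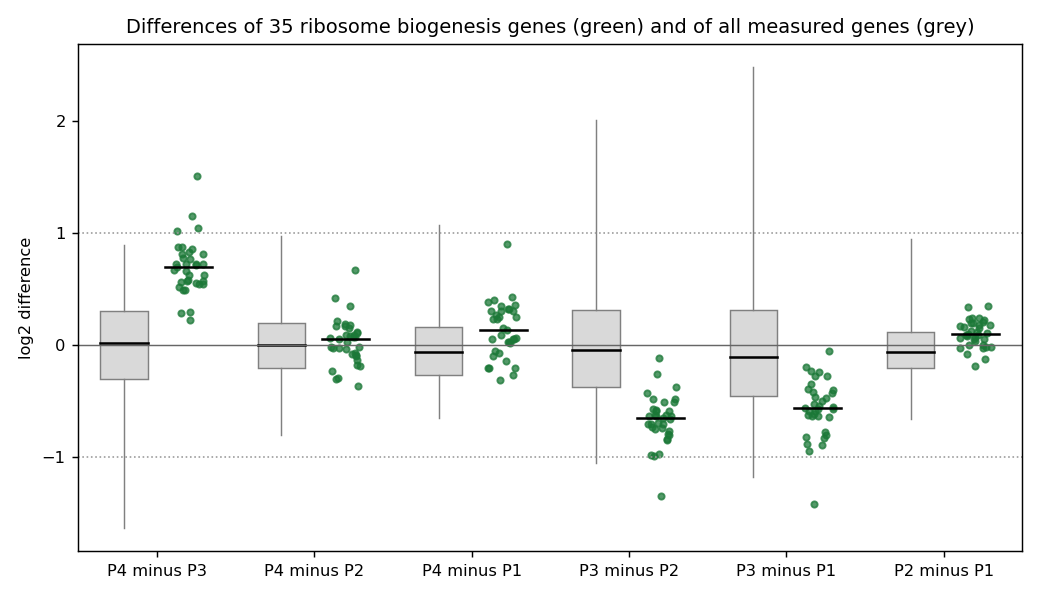
Log2 differences of the 35 ribosome biogenesis genes (green points, line at the median) in the 6 pairs of subsets, beside all measured genes (grey boxes from the 25th to the 75th percentile, line at the median, whiskers from the 5th to the 95th). Dotted lines mark 2-fold. Every green point lies above 0 in P4 minus P3 and below 0 in P3 minus P2 and P3 minus P1.

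Few of the genes reached 2-fold. In P4 minus P3, 4 genes were at least 2-fold higher, beside 3.98% of all measured genes, and 0 were lower, beside 9.07% of all. In P3 minus P2, 1 gene, Myc, was at least 2-fold lower, beside 5.61% of all, and in P3 minus P1 the same gene alone was, beside 6.98% of all. No gene of the list reached 2-fold in P4 minus P2, P4 minus P1 or P2 minus P1, where 4.78%, 5.43% and 4.76% of all measured genes were at least 2-fold higher and 3.45%, 1.77% and 2.52% at least 2-fold lower. At 1.5-fold the counts were larger: 22 genes were higher in P4 minus P3, beside 11.3% of all, 25 were lower in P3 minus P2, beside 14.9% of all, and 15 were lower in P3 minus P1, beside 18.6% of all. Most differences from P3 were thus below 2-fold. Just inside the 2-fold line stood Fbl at 1.02 in P4 minus P3. Just outside it stood Heatr1 and Rrp12, both at 0.88 in that pair, and Tsr1 at -0.99 in P3 minus P2.

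Srm differed most between P4 and the other subsets. It encodes spermidine synthase, the enzyme that makes the polyamine spermidine, and is a known MYC target. Its level was 4.02 in P4, 2.51 in P3, 3.35 in P2 and 3.12 in P1. P4 was the highest array and P3 the lowest, and the difference was 1.51 in P4 minus P3, 0.67 in P4 minus P2 and 0.90 in P4 minus P1. No other gene of the list reached 1.5-fold in P4 minus P2, where 9.07% of all measured genes were that much higher, or in P4 minus P1, where 9.16% were. Its other probes gave the same order of P4 over P2 over P1 over P3, with differences of 1.45 and 1.47 in P4 minus P3 and of 0.86 and 0.75 in P4 minus P1.

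Myc, the transcription factor named above, had a different order. Its level was 3.81 in P4, 2.65 in P3, 4.0 in P2 and 4.07 in P1. P3 alone stood apart, by -1.35 in P3 minus P2 and -1.42 in P3 minus P1, while P4, P2 and P1 lay within 0.27 of each other. The second Myc probe gave 1.28 in P4 minus P3 and -1.32 in P3 minus P1. In P4 minus P1 it gave -0.04, where the brighter probe gave -0.27, so each Srm probe was above 0 in this pair and neither Myc probe was. In the unscaled signal both genes were still higher in P4 than in P3, Srm by 0.71 and Myc by 0.35. In P3 minus P1, Myc then stood at -0.70 and Srm at 0.11, so the direction of Srm in that pair depends on the scaling.

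**Figure D3:**
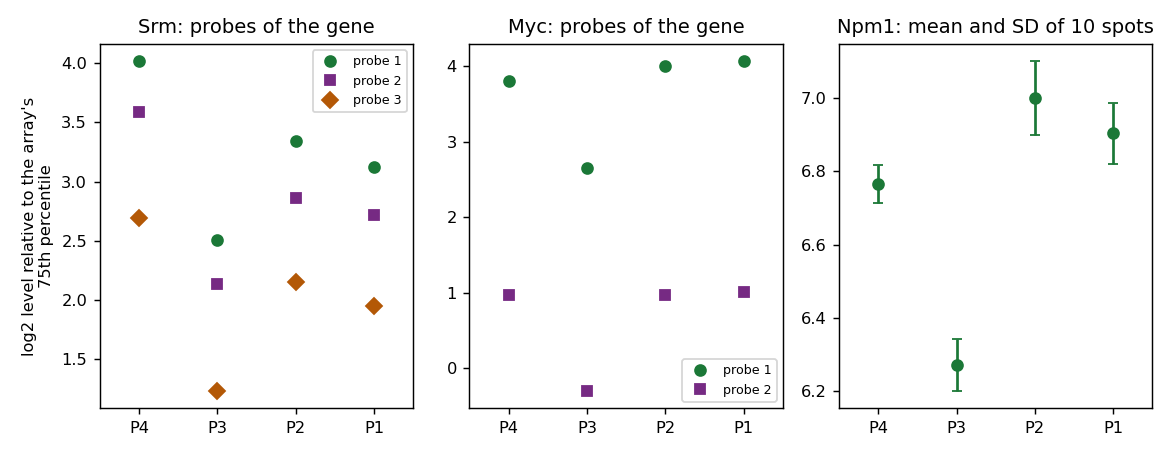
Log2 levels in the 4 subsets, 1 array each, for the 3 probes of Srm, the 2 probes of Myc and the repeated spots of 1 Npm1 probe (mean with SD over 10 spots on the array). Srm is highest in P4 and lowest in P3 on each probe, while Myc is low in P3 alone. The probes of a gene differ in brightness, so only their order across subsets can be compared.

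The core of the box C/D snoRNPs, which place methyl groups on ribosomal RNA, consists of the methyltransferase fibrillarin (Fbl) and the scaffold proteins Nop56 and Nop58. Fbl had levels of 7.16 in P4, 6.14 in P3, 7.12 in P2 and 7.09 in P1. Only P3 stood apart, and the difference was 1.02 in P4 minus P3 and -0.95 in P3 minus P1. Nop56 gave 0.62 and Nop58 0.72 in P4 minus P3. In P4 minus P1 the 3 genes lay between 0.06 and 0.15, inside the spot error.

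The box H/ACA snoRNPs convert uridines of ribosomal RNA to pseudouridine, with Dkc1 (dyskerin) as the enzyme and Gar1, Nhp2 and Nop10 as its partners. The 4 genes had a median of 0.48 in P4 minus P3 and -0.34 in P3 minus P1. They differed among themselves more than the C/D genes did, from 0.22 for Nop10 to 0.72 for Nhp2 in P4 minus P3. Gar1 showed the widest gap in P3 minus P1, at -0.88. In P4 minus P1, Nhp2 was higher at 0.32 and Gar1 lower at -0.21, so the partners of the complex did not share a direction there. Dkc1 stood at 0.40 in P4, 0.10 in P3, 0.69 in P2 and 0.34 in P1. Its second, dimmer probe gave 1.01 in P2 minus P1, against 0.35 from the brighter probe, and its P2 spot lay in a locally bright area of that array.

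Nucleolar chaperones and scaffolds were represented by nucleolin (Ncl), nucleophosmin (Npm1) and Nolc1, a protein that binds snoRNPs and RNA polymerase I. They were higher in P4 than in P3 by 0.55, 0.49 and 0.72. Npm1 had 1 probe printed in 10 spots on each array, and it gave 6.77 ± 0.052 in P4, 6.27 ± 0.071 in P3, 7.0 ± 0.101 in P2 and 6.90 ± 0.083 in P1 (SD over spots, n = 10 spots of 1 array). In P3 the spots reached 6.40 at most, and in P4, the nearest other array, they began at 6.70, so that the spots of P3 did not overlap with those of the other subsets. The Npm1 probe also had a spot in a locally bright area of P2. Ncl was lower in P3 than in P1 by the main scaling, at -0.20, but stood at 0.07 after quantile normalization and at 0.08 in the authors' values, so the direction of this probe in that pair depends on the scaling. Its dimmer probe stood at -0.73 there. Npm1 in P4 minus P1 likewise stood at -0.14 by the main scaling and at 0.08 under both of those alternatives.

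The small subunit processome is the large particle that forms on the precursor RNA to make the 40S subunit. The genes measured here code for its components Nop14, Rrp9, Utp20, Wdr43 and Heatr1, for the export and maturation factors Rrp12 and Tsr1, and for Nob1, the enzyme that makes the last cut of 18S RNA. All 8 were higher in P4 than in P3, with a median of 0.72, and lower in P3 than in P1, with a median of -0.64. Rrp9, which binds the U3 snoRNA, had levels of 2.81 in P4, 1.76 in P3, 2.39 in P2 and 2.41 in P1. It was one of the few genes in which P4 stood above P2 and P1 beyond the spot error, by 0.42 and 0.40, as well as above P3, by 1.05. Tsr1 and Nob1 went the other way against the subsets with high CD62L: Tsr1 stood at -0.36 in P4 minus P2 and Nob1 at -0.32 in P4 minus P1. Nob1 was also among the genes with the widest gap in P3 minus P1, at -0.90.

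Assembly of the 60S subunit involves Pes1, Bop1 and Wdr12, which form one complex (PeBoW), the methyltransferase Nop2, the GTP-binding protein Gnl3 (nucleostemin), and Nop16, Rrp1b, Rrs1, Wdr74 and Ppan. The 10 genes had a median of 0.62 in P4 minus P3 and of -0.50 in P3 minus P1. Within PeBoW, Pes1 stood at 0.55, Wdr12 at 0.70 and Bop1 at 0.28 in P4 minus P3. Bop1 varied least of the 10 genes across the arrays, with levels of 3.78 in P4, 3.49 in P3, 3.60 in P2 and 3.54 in P1, and its P3 minus P1 difference of -0.05 turned to between 0.01 and 0.08 under quantile normalization, the authors' values, normexp background correction and scaling to detected probes or to T cell lineage genes. Rrp1b had levels of 0.54 in P4, -0.24 in P3, 0.45 in P2 and 0.11 in P1. Its 2 dimmer probes gave 0.04 and 0.12 in P3 minus P1, against -0.35 for the brightest, so this gene had no settled direction in that pair. Rrs1 had the widest gap of the group in P3 minus P1, at -0.78.

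RNA polymerase I makes the ribosomal RNA precursor, and its subunits Polr1a and Polr1b carry the active site, while Polr1c is shared with RNA polymerase III. Polr1a stood at 0.73, Polr1b at 0.77 and Polr1c at 0.56 in P4 minus P3. The helicase Ddx21, which works in ribosomal RNA transcription and processing, stood at 0.86 and Mybbp1a, a nucleolar MYB-binding protein, at 0.83. All 5 genes of this group were above 0 in P4 minus P1, from 0.03 for Mybbp1a to 0.35 for Ddx21. Ddx21 was also higher in P4 than in P2, by 0.35, and its levels in P2 and P1 were both 3.73.

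The E-box CACGTG is the sequence that MYC and its partner MAX are known to bind, and CACGCG is a variant of it, so the promoters of the list were searched for both. The windows were RefSeq promoters of GRCm38.p6, from 250 bases before to 50 bases after each gene's start, and 29 of the 36 genes had one. The genes not in that table were Fbl, Npm1, Rrp12, Rrs1, Bop1, Srm and Myc. CACGTG, which is its own reverse complement, was found in 7 of the 29 windows (24.1%), beside 8.09% of 27025 genes. CACGCG, searched on both strands as CACGCG and CGCGTG, was found in 9 of the 29 windows (31.0%), beside 10.5% of all genes, and 2 genes, Mybbp1a and Pes1, held both motifs without overlap between them. To show where the E-box lies, the site of each gene that holds CACGTG follows with its flanks, in the sense of the gene, with the motif in capitals. The Utp20 flank was cut short at the edge of its window. The interval printed for Utp20 is shifted downstream by the bases cut, so it does not locate the printed letters exactly.
Mybbp1a (chr11:72441358-72441376, + strand): ttctgagccCACGTGtttg
Pes1 (chr11:3963968-3963991, + strand): taggcagggCACGTGcgggaggaa
Tsr1 (chr11:74898095-74898118, + strand): cttggtgcaCACGTGgactgcaga
Utp18 (chr11:93885772-93885795, - strand): agcgccggtCACGTGgcttgcggc
Utp20 (chr10:88826763-88826784, - strand): cactaactaCACGTGaggaaaa
Wdr43 (chr17:71616223-71616246, + strand): ccgggcgaaCACGTGgctgccgcg
Nop2 (chr6:125131814-125131837, + strand): tccctggatCACGTGtgttccggt

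The motif began 60 bases upstream of the start in Nop2 and 20 bases upstream in Utp18. In the other genes it lay downstream of the start, at 2 bases in Pes1, 17 in Wdr43, 24 in Tsr1, 37 in Utp20 and 40 in Mybbp1a. The 250 bases before the start of Nop2, with its CACGTG in capitals, and of Nolc1, with its CACGCG in the reverse orientation in capitals, show both kinds of site in their wider context.
Nop2 (chr6:125131633-125131882, + strand): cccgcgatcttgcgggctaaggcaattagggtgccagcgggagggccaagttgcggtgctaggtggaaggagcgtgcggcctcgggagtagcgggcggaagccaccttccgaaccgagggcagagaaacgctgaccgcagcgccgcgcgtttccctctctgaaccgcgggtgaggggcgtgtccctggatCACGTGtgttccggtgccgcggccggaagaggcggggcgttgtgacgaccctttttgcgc
Nolc1 (chr19:46075597-46075846, + strand): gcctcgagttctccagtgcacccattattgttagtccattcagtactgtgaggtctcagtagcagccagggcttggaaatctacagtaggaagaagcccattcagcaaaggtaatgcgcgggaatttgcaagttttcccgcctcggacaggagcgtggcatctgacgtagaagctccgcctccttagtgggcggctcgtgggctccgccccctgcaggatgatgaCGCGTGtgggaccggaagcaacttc

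The Nop2 stretch has 67.6% G and C, and that of Nolc1 56.4%. Differences from P3 were close in size with and without a motif: the median of P4 minus P3 was 0.72 in the 13 measured genes with either motif and 0.67 in the 15 with neither. Within CACGTG genes alone the median of P4 minus P3 was 0.64 over 6 genes, and it was -0.57 in P3 minus P1, the same as in the genes with neither motif. A match of letters is no evidence of binding, and nothing follows from a window without one.

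Wider lists of the pathway leaned the same way, with smaller medians. Of 46 other small subunit factors, 39 were lowest in P3, and of 44 other large subunit factors, 41 were. Their medians in P4 minus P3 were 0.31 and 0.39, against 0.70 for the 35 genes, and in P3 minus P1 they were -0.31 and -0.47. In the small subunit list the genes at least 2-fold apart were Rcl1, at 1.02 in P4 minus P3, Wdr46, at -1.07 in P3 minus P1, and Nat10, an RNA acetyltransferase, at -1.0 in P3 minus P2. In the large subunit list Nle1 stood at 1.35 in P4 minus P3, with levels of 2.27 in P4, 0.92 in P3, 2.15 in P2 and 2.31 in P1. Mdn1, the large ATPase that strips assembly factors from the 60S precursor, stood at 1.07 in that pair. Riok1, a kinase of late 40S maturation, was a counterexample, at -0.27 in P4 minus P3 and -0.96 in P4 minus P2.

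Factors one step away were mixed when set beside the 43% of all genes that were lowest in P3. Of 10 other RNA polymerase I genes 6 were lowest in P3, of 21 RNA polymerase III genes 13, of 9 snoRNP assembly factors 8 and of 14 RNA exosome genes 6, the last a share like that of all genes. Ubtf, which opens ribosomal DNA for transcription, stood at 0.82 in P4 minus P3. Of 17 nucleotide and one-carbon synthesis genes 13 were lowest in P3, among them Impdh2, the enzyme that commits purines to guanine nucleotides, at -0.95 in P3 minus P2. Shmt1, which feeds one-carbon units from serine, had its highest level in P4, by 1.83 in P4 minus P1, whereas Tyms, the enzyme that makes thymidylate for DNA, was highest in P3, by 2.07 in P3 minus P1.

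Polyamine genes other than Srm did not share its pattern. Of 7 matched, 2 were lowest in P3, and their median in P4 minus P3 was 0.24. Odc1, the first enzyme of the pathway, stood at 0.29 in P4 minus P3 and at 0.02 in P4 minus P1, against 1.51 and 0.90 for Srm. In the MYC network list, 2 of the 8 genes measured on every array were lowest in P3, beside 43% of all genes. In P3 minus P1, 7 of 11 were above 0 and 4 below, with a median of 0.14. Max stood at -0.85 in that pair, a direction like that of Myc. The family member Mycl was above background in P3 alone, and was higher there than in P1 by at least 1.57. Mxd3, which competes with MYC for MAX, was likewise above background in P3 alone, higher than in P1 by at least 1.28. A bound such as these sets the measured P3 level against the lowest level well above background on the other array.

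**Figure D4:**
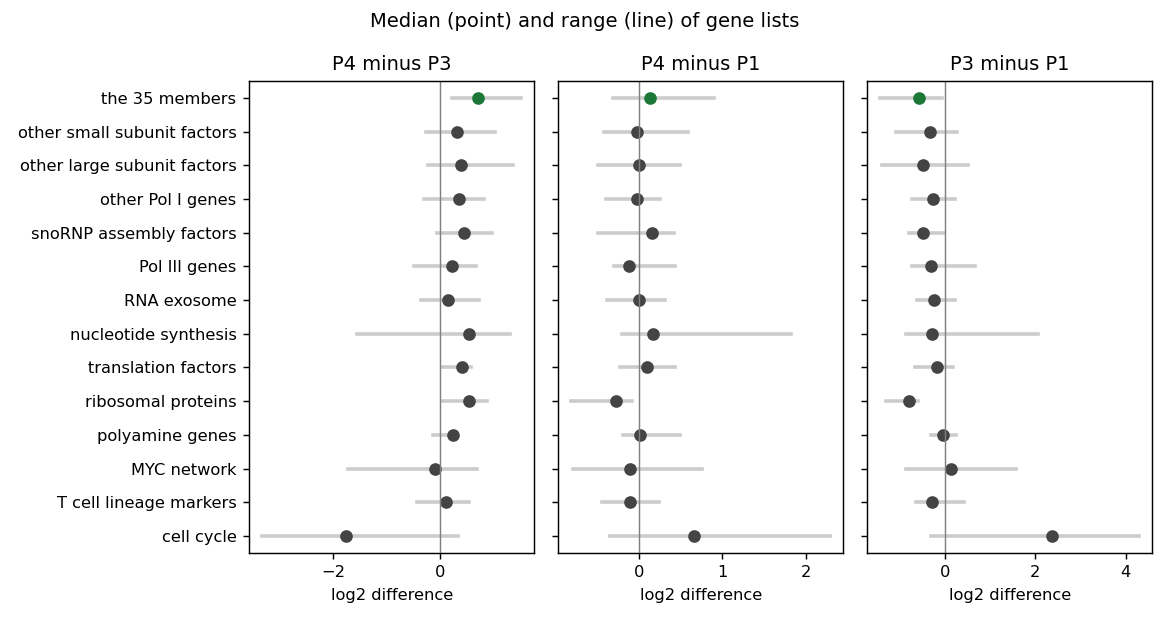
Median (point) and range (line) of the log2 difference for gene lists of ribosome production and for comparison lists, in P4 minus P3, P4 minus P1 and P3 minus P1. The ribosome biogenesis list (top, green) and the ribosomal proteins lie on the same side of 0 in the outer panels, where cell cycle genes lie on the other side, and on opposite sides in P4 minus P1.

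The ribosomal proteins, the products that the machinery assembles, separated from it in P4. All 76 were lowest in P3, with a median of 0.53 in P4 minus P3 and -0.79 in P3 minus P1. In P4 minus P1, however, all 76 were below 0, with a median of -0.28, while the 35 biogenesis genes had a median of 0.13. Of all measured genes, 41.2% were above 0 in this pair. Among the 2048 genes with a mean level of 4 or more, 72.0% were below 0, with a median of -0.14. Rps20 was the most negative ribosomal protein gene at -0.81, and Rpl36a stood at -1.31 in P3 minus P1. The directions of the ribosomal proteins held less firmly than those of the biogenesis genes. After quantile normalization 47 of the 76 were lowest in P3 and 54 were below 0 in P4 minus P1. In the authors' values the counts were 48 and 53. The ribosomal protein median in P4 minus P1 was -0.05 under both, inside the spot error. The median of P3 minus P1 was then -0.09 for the ribosomal proteins in both, against -0.44 and -0.43 for the 35 genes. With no scaling, 4 of the 76 were lowest in P3 and all 76 were below 0 in P4 minus P1.

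**Figure D5:**
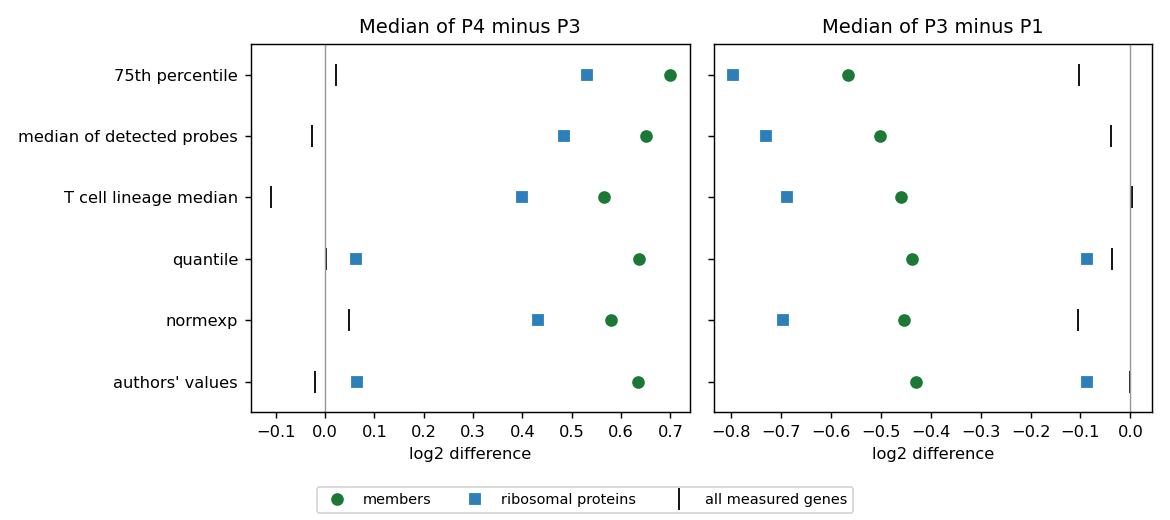
Median log2 difference of the 35 ribosome biogenesis genes (circles), the 76 ribosomal proteins (squares) and all measured genes (bars) under 6 processing settings, for P4 minus P3 and P3 minus P1. The circles stay between 0.57 and 0.70 in P4 minus P3, while the squares drop to 0.06 after quantile normalization and to 0.07 in the authors' values.

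Cell cycle genes ran opposite to ribosome biogenesis in P3. Of 28, 20 were at least 2-fold higher in P3 minus P1, beside 12.5% of all measured genes, with a median of 2.37, and 0 of the 23 measured on every array were lowest in P3. Tk1, a thymidine kinase of dividing cells, stood at 4.30 in P3 minus P1, and Ccnb2, a mitotic cyclin, at -3.33 in P4 minus P3. In P4 minus P1 the cell cycle median was 0.66, and Tk1 stood at 2.30. The subset with the highest levels of cell cycle genes was thus the one with the lowest relative levels of ribosome biogenesis genes.

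The contrast with other genes was present in each range of brightness. Among genes with a mean level of 4 or more, the 15 members had a median of 0.67 in P4 minus P3, against 0.12 for all 2048 genes in that range. From 2 to 4 the values were 0.73 for 13 members and 0.02 for 3266 genes, and from 0 to 2 they were 0.70 for 7 members and 0.02 for 2985 genes. In P3 minus P1 the brightest range gave -0.57 for members and -0.26 for all genes, so that bright genes in general were also lower in P3 on this scale.

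The P3 array also carried more signal from markers of other immune cells. Summed over markers of type 2 dendritic cells and class II genes, the signal relative to the 75th percentile was 15.5 in P4, 330.2 in P3, 12.5 in P2 and 9.30 in P1, and 10 of 11 measured markers were at least 2-fold higher in P3 minus P1. For type 1 dendritic cells the sum was 28.3 in P4, 73.3 in P3, 8.19 in P2 and 20.0 in P1, and 9 of 12 markers were at least 2-fold higher in that pair. Itgae, also on this list, went the other way, at -1.01 in P3 minus P1 and 1.02 in P4 minus P3. For macrophages and monocytes the sum was 4.39 in P4, 49.3 in P3, 5.17 in P2 and 3.57 in P1, with 11 of 13 at least 2-fold higher. Among all genes compared in this pair, 12.5% were that much higher. These counts have a limit, since many of the markers were above background in P3 but not in P1. Where the P1 value was raised to the lowest detected level, the difference is a bound. Of the type 2 and class II markers 6 were above background in P1 and 11 in P3. For type 1 markers the numbers were 5 and 12, and for macrophages and monocytes 4 and 13.

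Sums for B cells were 6.89 in P4, 12.4 in P3, 7.30 in P2 and 8.03 in P1, and those for plasma cells were 23.9 in P4, 36.7 in P3, 20.2 in P2 and 20.9 in P1, with 4 of 8 and 4 of 7 measured markers at least 2-fold higher in P3 minus P1. Natural killer cell markers, several of which cytotoxic T cells also express, summed to 381 in P4, 454 in P3, 202 in P2 and 117 in P1, with 7 of 7 at least 2-fold higher in P3 minus P1. Erythroid markers summed to 0.49 in P4, 7.20 in P3, 0.38 in P2 and 0.16 in P1, with 2 of 2 higher, and CD4 T cell markers to 1.63 in P4, 3.11 in P3, 1.41 in P2 and 1.23 in P1, with 2 of 3 higher. The limit on the counts above applies here too. Of the B cell markers 3 were above background in P1 and 8 in P3. For plasma cell markers these numbers were 3 and 7, and for natural killer cell markers 4 and 7. They were 1 and 2 for erythroid markers, and 2 and 3 for CD4 T cell markers. Markers above background on no array included Clec4a4, Fcgr1, Pax5, Blk, Ncr1, Alas2, Slc4a1 and Cd40lg. T cell lineage genes summed to 1532 in P4, 1388 in P3, 1543 in P2 and 1700 in P1. Relative to the median of these T cell lineage genes, 34 of the 35 ribosome biogenesis genes were lowest in P3. Their median was then -0.46 in P3 minus P1. This scaling shifts all genes of an array by the same amount, so it cannot separate the signal of other cell types. The part of the other cell types in the lower P3 levels was not tested.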

How the data were processed

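Per the labels' protocols, total RNA was reverse transcribed with random primers and labelled with Cy3. Agilent Feature Extraction 11.0.1.1 gave the deposited spot intensity, per the file headers, and its processed signal is background-subtracted and not scaled between arrays. A second table deposited by the authors gives 26188 probes on a log2 scale, with a median of 8.85 in each column. Its sorted columns were equal within 0.000619, so it was read as quantile normalized. Outlier spots were left out. Each probe's log2 signal was taken minus the array's 75th percentile, and RefSeq accessions named 22911 genes, each represented by its brightest probe. Genes were compared in a pair where at least 1 of its arrays was well above background. A dimmer value was raised to the lowest detected level. Differences of 2-fold were counted by size, with no test, and counting was tested on simulated data. The members, the lists and the marker genes were chosen with earlier results of these data known. Named were all members, and up to 3 genes per pair with the largest differences in other lists, plus genes described as examples after their values were seen. Alternatives used limma 3.58.1 (normexp, offset 50) in R 4.3.3, and numpy 2.4.6 and pandas 2.3.3 in Python. Protein sequences were not used here.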

Additional observations from a re-analysis of the deposited data

Results flagged for a closer look

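For 15 of the 35 genes, P4 was higher than P1 by more than the spot error while P3 was lower than P2 by more than it, so the comparison of low with high CD62L ran in opposite directions in CD44low and CD44high cells. The same held for 3.71% of the genes above background on all 4 arrays. With 1 array per subset this difference was not tested. In the unscaled signal, 13 of the 15 were higher in P3 than in P2, all but Heatr1 and Srm, so the lower P3 side rests on the scaling for these 13. On the log2 scale, P4 minus P1 exceeded P3 minus P2 by 1.74 for Srm, by 1.12 for Rrp1b, by 1.06 for Heatr1, by 1.03 for Rrp9 and by 1.01 for Polr1b. For Nhp2 the difference was 0.95, for Ppan and Wdr12 0.94 each, and for Utp20 0.90. Nop2 gave 0.87, Ddx21 0.86, Nolc1 and Nop16 0.82 each, Nop14 0.75 and Ncl 0.72. The dimmer Ncl probe did not share the P4 side, at -0.07 in P4 minus P1. The dimmer Wdr12 probes were above 0 in that pair, at 0.15 and 0.17, but inside the spot error. In all of these genes but Srm, P3 minus P2 was the larger part. It lay between -0.84 for Srm and -0.38 for Ncl, and P4 minus P1 lay between 0.24 for Ppan and 0.90 for Srm. In this set were the Polr1b subunit and factors of both ribosomal subunits, while none of the 3 box C/D genes met the condition.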

How the results depend on the processing

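The direction of the median differences from P3 rests on scaling the arrays, a setting looked at after seeing the data. With no scaling, the median over the members was -0.11 in P4 minus P3, 0.16 in P3 minus P1 and 0.075 in P3 minus P2. In these pairs 0 members reached 2-fold. In that signal 4 members were lowest in P3, 17 were highest in P3 and 5 were highest in P4. Of all genes above background on the 4 arrays, 3.5% were then lowest in P3. The cause of P3's higher overall signal was not tested. Under the other alternatives the medians kept their direction, apart from P4 minus P2, at -0.003 relative to T cell lineage genes. At 1.5-fold, 22 members were higher in P4 minus P3, 15 lower in P3 minus P1, 25 lower in P3 minus P2 and 1, Srm, higher in P4 minus P1 and in P4 minus P2. With T cell lineage scaling or normexp, 2 members, Srm and Myc, were 2-fold higher in P4 minus P3. The mean over probes gave 2 lower in P3 minus P1 and 4 lower in P3 minus P2. Without a filter or floor, dim Utp18 added 1 higher in P4 minus P2, 1 lower in P2 minus P1 and a second lower in P3 minus P1. Of 2310 single-gene values, 149 moved by more than the spot error, 105 of them without scaling. No paired analysis was possible because each subset has 1 array. The spot error covers variation within an array, and variation between arrays, sorts and mice was not measured.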
